A study of Mus musculus with 4 samples.

Results

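RUVBL2-bound regions of the mouse hypothalamus that lie near the ends of more than 1 gene are described here. A shared region is the joined interval of peaks of both RUVBL2 ChIP-seq libraries that overlap by at least 1 bp. A region was taken as a member when its midpoint lay within 1 kb of an end of 2 or more different protein-coding genes. The rule found 514 of 3111 shared regions (16.5%), of which 500 lay near 2 genes and 14 near 3 genes. A further 2029 shared regions lay near an end of 1 gene, and 568 near none.

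Chromatin immunoprecipitation followed by sequencing (ChIP-seq) pulls down DNA fragments cross-linked to a protein and counts where they map. The series asks where RUVBL2 binds in the hypothalamus, and its title sets the question in paraventricular neurons and appetite. It holds 2 RUVBL2 ChIP libraries and 2 input libraries, all from whole hypothalamus of wild-type (WT) male C57BL/J mice aged 8 weeks. Per the labels' protocols, the tissue was fixed in 1% formaldehyde for 10 min, an antibody against RUVBL2 on magnetic beads was used, and 15 PCR cycles preceded paired sequencing with 150 bp reads. There is no knockout, treatment or other comparison group, and the input libraries gave no values of their own here. The labels do not say whether replicates 1 and 2 are separate animals or pools, so their spread may be technical. Whole tissue mixes neurons with glia and vessels, and the peaks do not tell in which cells a region was bound.

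RUVBL2 is an AAA+ ATPase that works with its partner RUVBL1 in the INO80, SRCAP and TIP60 chromatin complexes and in the R2TP chaperone complex. Neighbouring genes can be arranged head-to-head, with both transcription starts facing away from each other across a short shared promoter, head-to-tail, with 1 start beside the other gene's end, or tail-to-tail, with no start between them. Head-to-head promoters in mammals are typically rich in CpG dinucleotides, often lack a TATA box, and serve many housekeeping genes.

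The DNA between the listed starts of 8 head-to-head pairs is shown because it is the whole stretch between the promoters' starts at these regions. In the gene table, which gives the outermost ends of each gene, 3 of the 8 pairs overlap (BC049762/Clk4, Znhit1/Plod3 and Oxsm/Ngly1). They are the best-ranked pairs with listed starts 30 to 200 bp apart, printed 5′ to 3′ on the plus strand of GRCm38.p6, from RefSeq promoter windows. The first gene named runs to the left and the second to the right. Capitals mark, on either strand, the GC box GGGCGG, the ETS core CGGAAG, the YY1 core AAGATGGCG, the NRF1 core GCGCATGC and the E-box CACGTG.
Thap4/Atg4b (chr1:93754839-93754904): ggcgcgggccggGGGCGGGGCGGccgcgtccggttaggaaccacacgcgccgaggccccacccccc
BC049762/Clk4 (chr11:51263058-51263113): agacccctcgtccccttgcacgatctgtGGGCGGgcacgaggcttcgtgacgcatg
Sdhaf2/Cpsf7 (chr19:10525210-10525243): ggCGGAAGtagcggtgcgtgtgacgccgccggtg
Ccdc157/Sf3a1 (chr11:4160294-4160353): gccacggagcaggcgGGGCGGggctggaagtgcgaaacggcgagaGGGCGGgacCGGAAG
Znhit1/Plod3 (chr5:136986905-136987018): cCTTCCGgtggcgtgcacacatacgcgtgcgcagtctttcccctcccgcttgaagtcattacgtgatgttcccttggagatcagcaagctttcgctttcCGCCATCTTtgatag
Oxsm/Ngly1 (chr14:16249177-16249313): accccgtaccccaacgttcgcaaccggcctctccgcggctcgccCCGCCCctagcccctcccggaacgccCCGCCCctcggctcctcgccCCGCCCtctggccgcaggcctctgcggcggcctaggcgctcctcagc
Slc39a7/Rxrb (chr17:34031691-34031811): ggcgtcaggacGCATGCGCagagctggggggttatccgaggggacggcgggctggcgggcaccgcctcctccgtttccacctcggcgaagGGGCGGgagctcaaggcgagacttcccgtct
Slc35a5/Atg3 (chr16:45158674-45158828): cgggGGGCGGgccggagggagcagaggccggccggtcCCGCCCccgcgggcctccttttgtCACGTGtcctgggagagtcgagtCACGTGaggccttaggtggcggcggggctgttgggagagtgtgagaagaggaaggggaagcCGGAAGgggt

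Both libraries had their summits, the points of highest signal, past the listed start of the same gene at all 8 of these pairs, and none in the printed DNA. In the 3 overlapping pairs a summit past 1 start can also lie within the outer bounds of the other gene. A GC box stood in 6 of the 8 sequences, an ETS core in 4 and the CCAAT box in 0. At Thap4/Atg4b, where the paired GC boxes share 1 base, the summits lay 9 and 36 bp inside Thap4, which encodes a THAP-domain protein. Atg4b, the protease that processes autophagy proteins of the Atg8 family, starts on the other side. At Sdhaf2/Cpsf7 the summits lay 156 and 162 bp inside Cpsf7, a subunit of the pre-mRNA cleavage factor, and not in Sdhaf2, an assembly factor of succinate dehydrogenase. At Ccdc157/Sf3a1 they lay 193 and 190 bp inside Sf3a1, a subunit of the U2 snRNP. The Znhit1/Plod3 pair holds a subunit of the SRCAP complex, Znhit1, and a collagen lysyl hydroxylase, Plod3. Its summits lay 215 and 132 bp past the listed start of Plod3, where the gene table has both genes overlap by 940 bp. Slc39a7/Rxrb carries an NRF1 core, and Slc35a5/Atg3 carries 2 E-boxes between its GC boxes and its ETS core.

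Regions near 2 gene ends were mostly regions at head-to-head starts. Pairs of protein-coding genes with ends at most 2 kb apart numbered 4770, and 538 of them (11.3%) held a member region within 1 kb of an end of both genes. Strand was known for both genes in 3129 of these pairs, of which 412 (13.2%) held a region. Of the 412, 314 were head-to-head and 67 head-to-tail. The remaining 126 pairs with a region had a gene whose strand is not in the promoter table, as for all genes of chromosome 18, and were put in no class.

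The share of pairs with a region followed the number of starts between the genes. Head-to-head pairs held a region in 314 of 1005 cases (31.2%, 95% interval 28.4 to 34.2). Pairs with both starts at nearly the same place on the same strand held one in 12 of 43 cases (27.9%, 15.3 to 43.7). A single start meeting another gene's end was next. Head-to-tail pairs held a region in 67 of 902 cases (7.43%, 5.80 to 9.34), and pairs with a start against an overlapping end on the opposite strand in 13 of 73 (17.8%, 9.84 to 28.5). Tail-to-tail pairs held one in 5 of 1049 cases (0.477%, 0.155 to 1.11). These are exact Clopper-Pearson intervals over pairs. Pairs of the same 2 libraries are not replicates, and some genes belong to more than 1 pair, so no test was made.

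**Figure D1:**
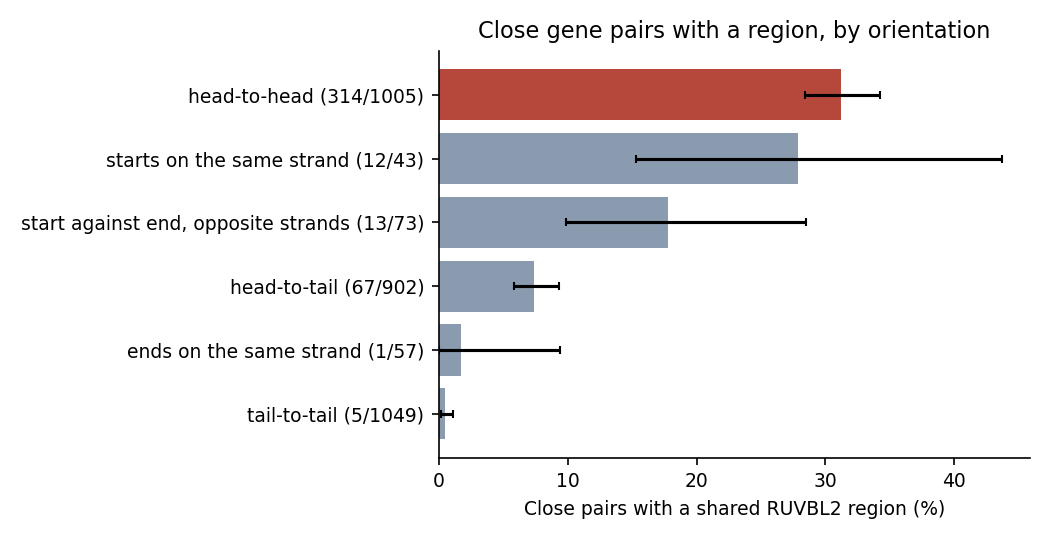
Share of close protein-coding gene pairs (ends at most 2 kb apart) with a shared RUVBL2 region within 1 kb of an end of both genes, by the orientation of the pair; bars are shares in percent, lines are 95% Clopper-Pearson intervals and counts stand beside each class. Head-to-head pairs reach 31.2%, head-to-tail pairs 7.43% and tail-to-tail pairs 0.477%.

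Most regions at tail-to-tail pairs had another gene nearby. Of the 5 such pairs, 4 lay in regions with 3 genes. These were Smim27/Ndufb6 beside Topors, Mtf1/1110065P20Rik beside Yrdc, Nme3/Mapk8ip3 beside Mrps34 and Trmt112/Esrra beside Prdx5. The pair's own genes also had a start close by, since some are short, at 62, 11.5, 53 and 391.5 bp from the midpoint in the same order of pairs. The start of the added gene lay 200 bp away for Topors, 40.5 bp for Yrdc and 16.5 bp for Prdx5. These 4 regions were therefore all within 1 kb of at least 1 start. Duox1/Shf was the exception, at chr2:122348640-122349264, with 6.47-fold enrichment in replicate 1 and 4.87-fold in replicate 2. The nearer start of that pair lay 20195 bp away. Duox1 encodes a dual oxidase and Shf an adaptor protein with an SH2 domain.

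At head-to-tail pairs, the region mostly sat on the side of the start. Its midpoint was nearer the start than the end in 59 of 67 pairs (88.1%, 95% interval 77.8 to 94.7), and the summit was nearer the start in 56 pairs in replicate 1 and in 58 in replicate 2. At the 13 start-against-end pairs the midpoint was nearer the start in 9 (69.2%, 38.6 to 90.9), and the summit in 9 in replicate 1 and 8 in replicate 2, with intervals too wide to place the side. The region with the best rank of this kind lay 87 bp from the start of Tpgs1, a subunit of the tubulin polyglutamylase complex, and 984 bp from the end of Madcam1, a vascular adhesion molecule. The Usp19/Lamb2 region lay 246 bp from the start of Usp19, a deubiquitinase, and 323 bp from the end of Lamb2, a laminin chain. Among the 12 pairs of both kinds with the midpoint nearer the end were Atxn7l2/Sypl2, at 267.5 bp from the Atxn7l2 start and 100.5 bp from the Sypl2 end, and Maz/Kif22, at 509.5 bp from the Maz start and 31.5 bp from the Kif22 end. Maz is a zinc finger transcription factor and Kif22 a chromosome-associated kinesin.

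Starts of head-to-head genes and of genes that stand alone were set side by side. Of 1993 head-to-head genes, 649 had a region at most 1 kb from the start (32.6%, 95% interval 30.5 to 34.7), and these intervals do not overlap that of 1145 of 11785 genes with no close protein-coding neighbour (9.72%, 9.19 to 10.3). The share over all 17492 genes with a known start was 13.9%. A region between facing starts counts for both genes, so these shares are not independent between partners. At the other end of the gene, the shares were 0.953% for head-to-head genes and 0.0849% for genes with no close neighbour. Promoter CpG content differs between these genes, so the shares were also set side by side within 4 classes of CpG count in the 300 bp promoter window, and were higher for head-to-head genes in all 4. With 31 or more CpGs, 47.7% of head-to-head starts (43.1 to 52.4) and 30.2% of lone starts (27.8 to 32.6) held a region. With 10 or fewer, the shares were 12.01% (8.47 to 16.4) and 1.06% (0.824 to 1.35).

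Counted once per pair, the distance was small. A region lay within 1 kb of either start in 339 of 1005 head-to-head pairs (33.7%, 95% interval 30.8 to 36.7). If each start of a pair held a region as often as a lone start of the same CpG class, independently of the other, 31.8% of the pairs would hold one. That computed share lies inside the interval of the measured one. It assumes independence, although facing promoter windows can share bases. With starts up to 300 bp apart, each pair with a region near either start had it near both. What makes the shares alike was not tested.

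The share showed no steady trend with the distance between the starts up to 1000 bp. Among pairs whose genes do not overlap, the median gap was 77.5 bp (quartiles 37 to 208) in the 184 pairs with a region and 137 bp (62 to 332) in the 461 without one. The 1 kb limit keeps wide gaps out of the pairs with a region. Among gaps up to 300 bp, where that limit removed no pair with a region near either start, the medians were 64 bp (32 to 123) in 153 pairs with a region and 89 bp (44 to 157.5) in 331 without. The share was 36.1% (30.6 to 42.0) for gaps up to 100 bp, 33 of 132 pairs for 100 to 200 bp (interval 17.9 to 33.3%) and 36.4% for 300 to 500 bp, where the interval is wide. Above 1000 bp it was 0 of 64 pairs, which the 1 kb limit fixes in large part, and regions near either start were still found at 21.9% of those pairs. Pairs whose first transcribed stretches overlap held a region in 130 of 360 cases (36.1%, 31.1 to 41.3), and pairs with a gap in 184 of 645 (28.5%, 25.1 to 32.2).

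**Figure D2:**
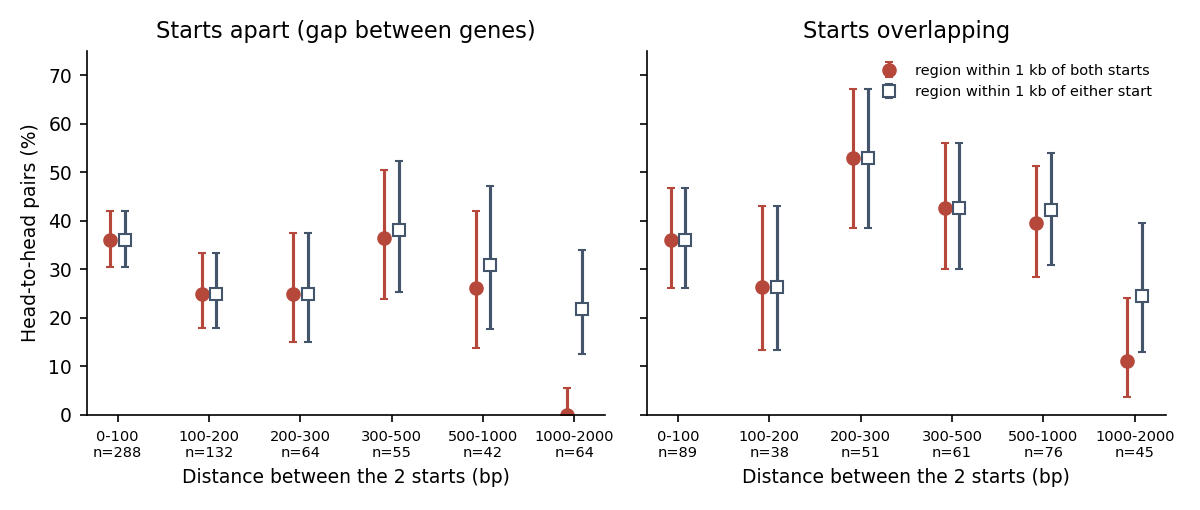
Share of head-to-head pairs with a shared region (vertical axis, percent) against the distance between their starts in bp, for pairs with a gap (left) and for overlapping pairs (right); filled circles count regions within 1 kb of both starts, open squares regions within 1 kb of either start, and lines are 95% Clopper-Pearson intervals. Both measures run together up to 300 bp, and at 1000 to 2000 bp the share for both starts drops to 0 on the left while the share for either start is 21.9%.

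Although chosen for lying near 2 ends, few regions were centred between them. Over all 328 pairs with a gap, the midpoint fell inside the gap in 81 (24.7%, 95% interval 20.1 to 29.7). The region itself was wider than most gaps and covered both starts in 149 of the 184 head-to-head pairs (81.0%). Its summit lay inside 1 of the genes in 157 pairs in replicate 1 (85.3%) and in 155 in replicate 2 (84.2%). The median depth of the summit inside the gene, with summits in the gap counted as negative, was 134 bp in replicate 1 and 116 bp in replicate 2. For gaps over 200 bp, the summit was still inside a gene in 29 of 47 pairs in replicate 1 and in 24 of 47 in replicate 2. Shared regions near a single gene end had a like offset. Of 1647 with a known strand, 1637 were nearer the start than the other end, and at these the median summit lay 171 bp downstream of the start in replicate 1 and 159 bp in replicate 2.

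Both libraries mostly put the summit in the same gene of a pair. In 141 head-to-head pairs both summits lay inside a gene, and both lay in 1 gene in 112 (79.4%, 95% interval 71.8 to 85.8). With gaps over 100 bp this was so in 43 of 45 pairs (95.6%, 84.9 to 99.5), and with shorter gaps in 69 of 96 (71.9%, 61.8 to 80.6). Among the pairs whose region ranked 1000th or better by −log10 p in both lists this was so in 31 of 32, and in 81 of 109 with lower ranks. The side was neither that of the longer gene, chosen in 46 of the 112 pairs (41.1%, 31.9 to 50.8), nor that of the higher coordinates, chosen in 56. The offsets of the 2 summits from the gap centre had a Pearson r of 0.66 and a Spearman rho of 0.61 over the 184 pairs. These pairs come from the same 2 libraries, and the joined region bounds both summits, so the values are descriptions only.

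**Figure D3:**
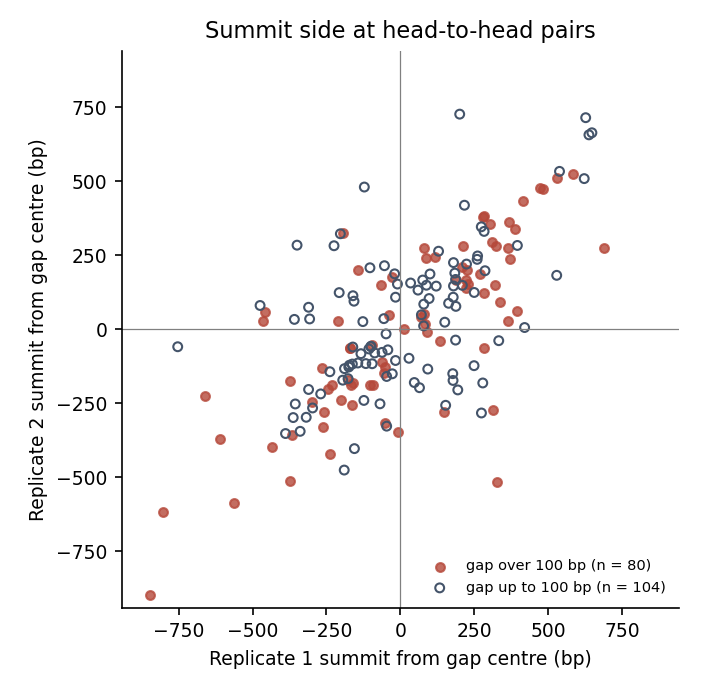
Position of the summit in replicate 1 (horizontal axis, bp) and replicate 2 (vertical axis, bp) relative to the centre of the gap, at 184 head-to-head pairs with a gap; filled circles are gaps over 100 bp and open circles shorter gaps. Negative values lie towards the gene of lower coordinates, and most points fall at the lower left or upper right, where both libraries have their summit on the same side.

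The enrichment at these regions was modest and close to that of other shared regions. Folds are the authors' values, the summit signal of a peak over the background set by their peak caller. The median was 5.14-fold in replicate 1 and 5.22-fold in replicate 2 at member regions, against 5.02-fold and 5.39-fold at regions near 1 gene end. Values ran over 2.90 to 18.96-fold in replicate 1 and 2.50 to 15.1-fold in replicate 2. Replicate 2 had the higher fold at 282 of the 514 regions, against 1177 of 2029 near 1 gene end and 1769 of all 3111 shared regions. The median summit pileup of a member region, recovered from the fold and the −log10 p, was 17 fragments in replicate 1 and 26 in replicate 2. The exact Poisson 95% intervals of the pileup, turned into folds, did not overlap between the replicates at 11 of the 514 regions. The same count was not made over all shared regions, so it does not set the members apart. These Poisson intervals reflect the error of counting alone, because PCR copies were not told apart by molecular identifiers. The log2 folds of the replicates had a Pearson r of 0.43 and a Spearman rho of 0.39 over the 514 regions, which share the 2 libraries. Member regions had a median width of 741.5 bp (quartiles 572 to 957), against 699 bp (541 to 910) at regions near 1 end.

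The best-ranked member regions are given with the roles of their genes. Ranked by the worse of their 2 ranks by −log10 p, 16 of the first 20 were head-to-head. The first, at chr17:35916248-35917411, joins Mrps18b, a protein of the small mitochondrial ribosomal subunit, to Ppp1r10, a nuclear targeting subunit of protein phosphatase 1. It had 18.96-fold enrichment in replicate 1 (14.6 to 24.2) and 12.9-fold in replicate 2 (10.0 to 16.4). Both summits lay about as far inside Ppp1r10, at 502 and 498 bp from its start. Next came Ccni/2010109A12Rik, at the gene of cyclin I, with 11.1-fold in replicate 1 and 14.7-fold in replicate 2.

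Of the first 20 regions, 5 have a gene of the splicing list described further on, which are Srsf7, Hnrnpa2b1, Rbm12, Clk4 and Sf3a1. Of the 118 genes of the list, 24 were at any of the 514 member regions and 60 near a shared region of any kind. The best-ranked regions near 1 gene end were not counted for splicing genes. Srsf7, an SR protein of splicing, faces Gemin6, a component of the SMN complex that assembles spliceosomal snRNPs, across 135 bp. Their region (chr17:80206441-80207623) had 9.56-fold in replicate 1 and 14.4-fold in replicate 2, with summits 368 and 331 bp inside Srsf7. Hnrnpa2b1, an hnRNP protein, faces Cbx3, a heterochromatin protein, across 106 bp, in the widest member region (2418 bp, chr6:51468835-51471252). It had 9.84-fold in replicate 1 and 11.3-fold in replicate 2, with summits 793 and 844 bp inside Hnrnpa2b1. Ccdc157/Sf3a1 had 8.04-fold in replicate 1 and 10.3-fold in replicate 2. Not on that list, Safb2/Safb, a pair of related scaffold attachment factors, had 9.53-fold and 11.03-fold with summits 212 and 205 bp inside Safb2.

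Among the first 20 with a gap and known strands, 2 had both summits in the gap. Gart, an enzyme of purine synthesis, and Son, a splicing factor of nuclear speckles, are 852 bp apart (chr16:91646713-91648414). Their region had 9.97-fold in replicate 1 and 10.6-fold in replicate 2. Thap2/Zfc3h1, with a gap of 364 bp, had 8.01-fold in replicate 1 and 10.6-fold in replicate 2. Zfc3h1 takes part in nuclear RNA decay. Over all 184 pairs, both summits lay in the gap in 13 (7.07%).

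The others of the 20 showed like values. Ddx5/Cep95, an RNA helicase and a centrosomal protein with overlapping starts, had 9.96-fold in replicate 1 and 12.8-fold in replicate 2. Cpne1/Rbm12 share a start on the same strand and had 9.86-fold in replicate 1 and 9.91-fold in replicate 2. Rbbp4, a histone chaperone, faces Zbtb8os, and the region had 10.8-fold in replicate 1 and 8.67-fold in replicate 2, with both summits inside Zbtb8os. Sdhaf2/Cpsf7 had 11.8-fold and 10.6-fold, Thap4/Atg4b 12.3-fold and 11.3-fold, and Rsrc2/Kntc1, with the gene of a kinetochore protein, 9.56-fold and 8.22-fold, replicate 1 first in each. Madcam1/Tpgs1, BC049762/Clk4, Topors/Smim27/Ndufb6, Rnps1/Eci1, Ndufs3/Kbtbd4 and Dnajb4/Fubp1 lay between 7.59 and 9.56-fold in replicate 1 and between 7.74 and 10.2-fold in replicate 2. Folds of 8 or more in both replicates were found at 17 member regions (3.31%), against 3.70% of all shared regions. Folds under 5 in both were found at 134 (26.07%), against 25.97% of all.

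**Figure D4:**
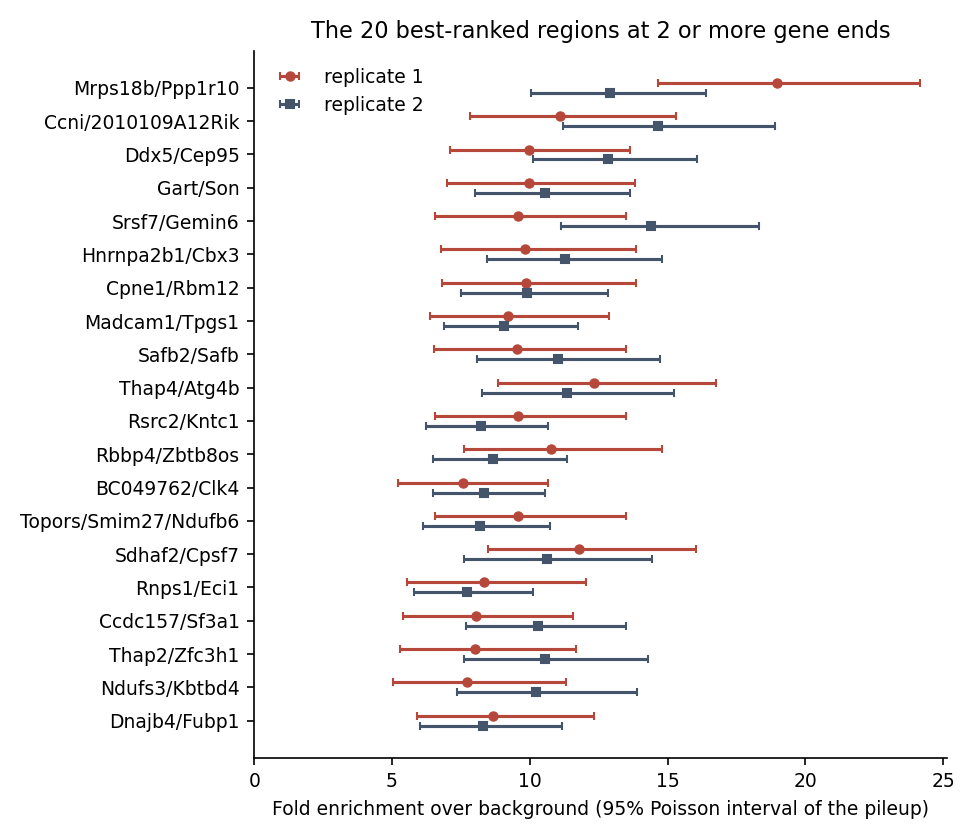
Fold enrichment over background (horizontal axis) in replicate 1 (circles) and replicate 2 (squares) at the 20 best-ranked member regions, ordered from best rank at the top; lines are 95% Poisson intervals (exact) and reflect counting error alone. Mrps18b/Ppp1r10 reaches 18.96-fold in replicate 1 and 12.9-fold in replicate 2, and the intervals of the 2 replicates overlap at all 20 regions.

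Of the 14 regions with 3 genes, the best-ranked after Topors/Smim27/Ndufb6 were Mtf1/1110065P20Rik/Yrdc, at 5.55-fold in replicate 1 and 6.31-fold in replicate 2, and Rad17/Taf9/Ak6, at 6.16-fold and 4.75-fold in the same order. Mtf1 is the metal-responsive transcription factor. Rad17 loads a checkpoint clamp at damaged DNA and Taf9 is a subunit of TFIID. The next 7 were Mrps34/Nme3/Mapk8ip3, Trappc13/Shld3/Trim23, Anxa9/LOC115489748/Cers2, Tomm6/Frs3/Prickle4, Gm27021/Emc8/Cox4i1, Prdx5/Trmt112/Esrra and Alkbh1/Nrp/Slirp. These 7 lay between 3.50 and 5.04-fold in replicate 1 and between 4.57 and 6.22-fold in replicate 2.

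The share of peaks found again in the other library was somewhat higher near 2 or more gene ends than near 1 end, untested. Of all peaks, 80.1% of replicate 1 and 48.8% of replicate 2 overlapped a peak of the other list. Near 2 or more ends it was 519 of 610 in replicate 1 (85.1%, 95% interval 82.0 to 87.8), against 2052 of 2575 near 1 end (79.7%, 78.1 to 81.2). In replicate 2 it was 513 of 932 (55.0%, 51.8 to 58.3), against 2037 of 4124 (49.4%, 47.9 to 50.9). Each list was also cut into 4 classes at the quartiles of its −log10 p, with ties kept together. The share was higher near 2 or more ends in 7 of the 8 classes, the exception being the second-strongest class of replicate 1, with 83.1% near 2 or more ends and 84.8% near 1 end.

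The genes at member regions numbered 1026, or 4.71% of 21779 protein-coding genes, while a shared region of any kind was near an end of 13.9%. A gene counted as at a region by either of its ends, so some were counted without their start nearby. Gene lists differ in how many of their genes have a close neighbour at all, which was 32.2% over all protein-coding genes, and that share is given as the close-neighbour share of each list. Genes of the mitochondrial ribosome were at a member region in 18 of 78 cases (23.1%, 95% interval 14.3 to 34.0; close neighbour 64.1%). Mrps7/Gga3 had 6.85-fold in replicate 1 and 10.4-fold in replicate 2, and Mrpl46/Mrps11 puts genes of both ribosomal subunits on either side of 1 region. Genes of the respiratory chain and ATP synthase were at one in 18 of 83 cases (21.7%, 13.4 to 32.1; close neighbour 63.9%). Besides Ndufb6 and Ndufs3, subunits of complex I, these included Atp5a1/Haus1 at 9.07-fold and 6.99-fold and Atp5j/Gabpa at 5.86-fold and 6.67-fold in replicates 1 and 2. Ndufb6 was counted by its end, 950 bp from the midpoint of the Topors region, while its own start lay 9780 bp away. Gabpa encodes an ETS-family factor known to act on mitochondrial genes.

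Splicing genes were at a member region in 24 of 118 cases (20.3%, 13.5 to 28.7; close neighbour 47.5%), among them Srsf7, Hnrnpa2b1, Rbm12 and Clk4, a kinase of SR proteins. The aminoacyl-tRNA synthetases had 8 of 38 (21.1%, 9.55 to 37.3; close neighbour 52.6%), including Fars2/Lyrm4 at 5.53-fold and 8.48-fold in replicates 1 and 2. Chaperones had 14 of 82 (17.1%, 9.66 to 27.0; close neighbour 51.2%), with the mitochondrial chaperonins Hspd1 and Hspe1 facing each other at 5.14-fold in replicate 1 and 8.78-fold in replicate 2. General transcription factors, Mediator and polymerase subunits had 15 of 105 (14.3%, 8.22 to 22.5; close neighbour 60.95%), among them Polr2i/Tbcb, Gtf2h3/Eif2b1 and Gtf3c4/Ddx31. Cytosolic ribosomal proteins had 10 of 83 (12.05%, 5.93 to 21.04; close neighbour 51.8%), although 53.0% of them had some shared region near an end. The best-ranked was Rpl35a/Iqcg at 8.06-fold and 7.63-fold in replicates 1 and 2. Some shared region was likewise near an end of 39.7% of mitochondrial ribosome genes, 48.2% of respiratory chain genes and 50.8% of splicing genes. For tRNA synthetases this share was 36.8%, for chaperones 41.5% and for the general transcription list 35.2%, against 13.9% of all protein-coding genes.

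Subunits of complexes that contain RUVBL2 were at a member region in 5 of 39 cases (12.8%, 4.30 to 27.4; close neighbour 51.3%). That interval includes the 4.71% of all protein-coding genes, and 46.2% of the list had some shared region near an end. Znhit1, beside Plod3, had 8.32-fold in replicate 1 and 7.20-fold in replicate 2. Brd8, of the TIP60 complex, had 6.17-fold and 7.97-fold beside Kif20a, and Mbtd1, of the same complex, 4.32-fold and 5.07-fold beside Utp18. Tti1, a co-chaperone that works with R2TP, had 3.85-fold and 4.35-fold beside Rprd1b. Ino80e, of INO80, had 4.48-fold and 3.50-fold beside Hirip3, the replicates again in order.

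Mitochondrial import genes and carriers had 8 of 71 (11.3%, 4.99 to 21; close neighbour 50.7%) and translation factors 7 of 70 (4.12 to 19.5%; close neighbour 51.4%). DEAD-box and DEAH-box helicases had 5 of 53 (9.43%, 3.13 to 20.7; close neighbour 50.9%) and DNA repair and replication genes 8 of 86 (9.30%, 4.102 to 17.5; close neighbour 70.9%). The intervals of the next 6 lists include the 4.71% of all genes, as do those of the helicases, repair genes, translation factors and RUVBL2 complexes. Rab and Vps trafficking genes had 6 of 93 (6.45%, close neighbour 41.9%) and cilium and centrosome genes 4 of 64 (6.25%, close neighbour at 32 of them). Ubiquitin and proteasome genes had 6 of 126 (4.76%, close neighbour 46.8%) and Zfp zinc finger genes 17 of 394 (4.31%, close neighbour 20.1%). Glutamatergic postsynaptic genes had 2 of 32 (close neighbour 31.25%), which were Shank1 and Dlg2, both scaffold proteins. Presynaptic release genes had 1 of 30 (close neighbour 43.3%), Ppfia3, at 3.998-fold in replicate 1 and 4.82-fold in replicate 2 beside Lin7b. None of 32 genes of appetite and hypothalamic peptides was at a member region, which allows a share of up to 9.38% by 3 counts of the total and up to 10.9% by the exact interval, and 15.6% of them have a close neighbour. None of 63 histone genes was at one either, although 81.0% have a close neighbour, nor any of 1105 olfactory receptor genes, of which 1.72% have a close neighbour. Marker genes of neurons, astrocytes, oligodendrocytes, microglia and vessel cells gave 0 of 14, 0 of 14, 0 of 18, 0 of 14 and 0 of 14, and ependymal and liver markers gave 1 of 13 (Col23a1) and 1 of 23 (Apoa2). Col23a1 was counted by its end, 821.5 bp from the midpoint of a region that lay 92.5 bp from the start of Phykpl. Between 13.04% and 38.5% of the genes of these marker lists have a close neighbour. Peak lists therefore give no check of the tissue label through marker genes.

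Of 28 gene pairs listed as known neighbours, most of them textbook cases of shared promoters, 21 were close in the gene table and 16 of these were head-to-head. A region stood at 3 of the 16, which were Gart/Son, Hspd1/Hspe1 and Rps18/Vps52, the last at 6.41-fold in replicate 1 and 5.96-fold in replicate 2. No shared region was at Surf1/Surf2, Tk1/Afmid, Ppat/Paics, Col4a1/Col4a2, Mrps12/Sars2, Sirt3/Psmd13 or Tap1/Psmb9, nor at the other 6 head-to-head pairs of the list.

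Promoters at member regions were GC-rich and differed in their short motifs from head-to-head promoters without a region. The 597 promoter windows of head-to-head pairs with a region had a median GC content of 65.0% and 27 CpGs, against 60.3% and 21 CpGs in 1368 windows of pairs without one. Regions near 1 gene end had 64.5% and 27 CpGs, and all 17492 windows 56.3% and 13. The windows are 300 bp long, with 250 bp before and 50 bp after the start, so facing windows of 1 pair can share bases.

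The ETS core was the motif with the largest difference. CGGAAG or its reverse complement was present in 53.4% of head-to-head windows with a region (95% interval 49.3 to 57.5), against 35.7% (33.2 to 38.4) of those without, 36.7% at regions near 1 gene end and 21.5% of all windows. The CCAAT box went the other way, with 29.98% (26.3 to 33.8) in windows with a region, against 45.7% (43.0 to 48.4) in those without, 34.1% near 1 end and 39.2% of all. With only 1 window per pair the ETS core was in 50.3% with a region, against 33.6% without, and the CCAAT box in 31.8% and 45.6% in the same order. The GC box was common everywhere, at 70.0% with a region, 61.3% without and 74.97% near 1 gene end, against 46.3% of all windows.

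Rarer motifs were the YY1 core AAGATGGCG, in 8.38% of head-to-head windows with a region, 3.65% of those without and 1.92% of all, and the palindrome CTCGCGAG, in 5.70%, 2.27% and 1.31% in the same order. With 1 window per pair their intervals overlapped, at 6.05% (3.68 to 9.29) with a region and 3.47% (2.24 to 5.12) without for YY1, and at 4.78% (2.70 to 7.76) and 2.171% (1.22 to 3.56) for the palindrome. The TATA box TATAAA was in 3.52% with a region, 6.65% without and 13.3% of all. The E-box CACGTG, the NRF1 core GCGCATGC and the CRE TGACGTCA were in 12.4%, 5.53% and 4.69% of windows with a region, against 10.3%, 5.56% and 2.85% of those without. With 1 window per pair the NRF1 core was in 5.10% with a region and 6.66% without. At regions near 1 gene end the YY1 core was in 7.14% of windows (5.93 to 8.51), the palindrome in 3.17% and the TATA box in 4.47%. The E-box, the NRF1 core and the CRE were in 10.2%, 6.96% and 4.35% there. GC content and CpG number move with the presence of a region, and their part in the motif shares was not tested. A match is a string of letters in a window and not a shown binding site.

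**Figure D5:**
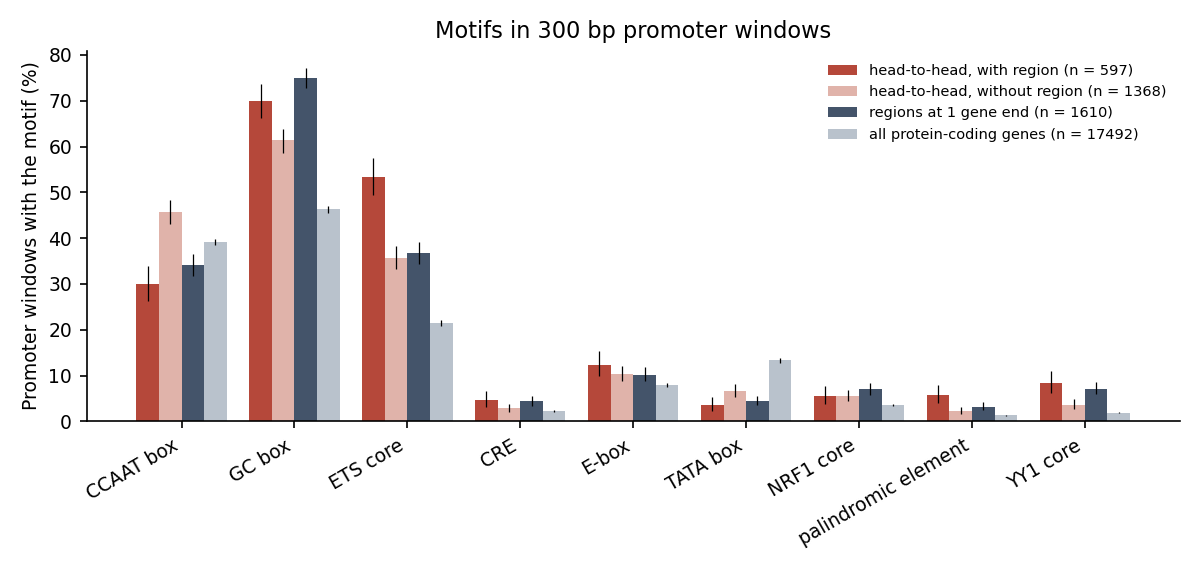
Share of 300 bp promoter windows (vertical axis, percent) that hold each motif on either strand, for head-to-head pairs with a region, head-to-head pairs without one, genes near regions at 1 gene end, and all protein-coding genes; lines are 95% Clopper-Pearson intervals. The ETS core stands at 53.4% in head-to-head windows with a region and at 35.7% in those without, and the CCAAT box at 29.98% and 45.7% in the same order.

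Too few to compare in strength, the following regions lay nearest the limit of 1 kb. Just inside it were Actn3/Zdhhc24, with the second end at 995 bp, Ate1/Gm4275 at 993.5 bp and LOC115489489/Ncoa3 at 989.5 bp, with 4.32 to 4.72-fold in replicate 1 and 4.20 to 5.17-fold in replicate 2. Just outside it were regions at Zfp706 with the second gene at 1006.5 bp, at Poc1b with Galnt4 at 1015 bp and at Prr7 with Dbn1 at 1019.5 bp, with 4.01 to 6.37-fold in replicate 1 and 3.84 to 6.64-fold in replicate 2. Among pairs whose gene bodies do not overlap, the gene ends at member regions were closest, at 1 bp, at Capza1/St7l, Klhl18/Kif9 and Ears2/Ubfd1, all head-to-head, and farthest at Mrps34/Mapk8ip3 (1217 bp) and Inpp5b/Mtf1 (1038 bp).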

How the data were processed

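Peak and summit lists of the 2 RUVBL2 ChIP libraries were analysed, 1 of each per library, so peaks were called per library. Per the submitters' processing notes, the build was GRCm38 and the authors' tools were MACS2 2.1.0, ChIPseeker, Bowtie2 2.3.4.1, Trimmomatic 0.33 and bcl2fastq 2.17, with settings and peak-calling control not given in the sources used here. Peak names of replicate 2 start with Hyp3 but its title with Hyp2, and its GEO sample decided the assignment. In the deposited lists each peak has a fold enrichment (a ratio over the caller's background), values of −log10 p and −log10 q, and a score that repeats the −log10 q. In replicates 1 and 2 the lowest −log10 q were 1.32 and 1.34. The deposited summit offsets equal the summit lists at every peak. Library totals are not given, so depth was taken from summit pileups solved from the fold and the −log10 p, which matched 100% of peaks at a relative tolerance of 0.0001 and were tested on simulated data. The median pileup was 16 fragments over the 3943 peaks of replicate 1 and 22 over the 6403 of replicate 2, and shallow peaks limit the precision of single folds.

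Genes came from a RefSeq table of GRCm38.p6 with 21779 protein-coding genes, and strand, starts and sequence from RefSeq promoter windows of the same build for 17492 of them. Exons, introns and UTRs were not assigned. Shares carry exact Clopper-Pearson 95% intervals and folds exact Poisson ones; both treat pairs, genes or fragments as independent. No test was made, because there is no second group and regions are not replicates. The members, lists and motifs were chosen with earlier results of these data known. Named were, by rule, the 20 best member regions by the worse of their ranks, up to 10 regions with 3 genes, up to 4 members per list, the known pairs, the pairs with the longest and shortest gaps, and those nearest the 1 kb limit; other examples were chosen after their values were seen. A few items that this rule names are not reported here. Alternatives changed the window, the overlap, the q threshold, the gene set, the strand searched and the replicates used. Leaving out chromosome 18 or olfactory receptors, using 1 window per pair, and taking gaps up to 300 bp, were added after seeing the data. Python 3.11.15, numpy 2.4.6, scipy 1.17.1, pandas 2.3.3 and matplotlib 3.10.9 were used.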

Additional observations from a re-analysis of the deposited data

How the results depend on the processing

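Of the 109 values computed under an alternative setting, 80 stayed close to the value reported and 29 moved. Close meant within its spread or interval, or for the member count within a fixed ratio of it. Reversals of direction were not scored. No paired analysis was possible because the replicate numbers are shared only with input libraries that gave no values here. A window of 500 bp gave 12.5% of shared regions as members and 0 of 725 tail-to-tail pairs with a region, and a window of 2 kb gave 20.6% and 1.79%. Without Gm and Rik genes, 15.0% were members. Requiring summits within 250 bp gave 9.27% of close pairs and 24.9% of head-to-head pairs with a region. A −log10 q of 5 or more left 261 members, 5.72% of close pairs and 16.4% of head-to-head pairs, with median folds of 6.16 in replicate 1 and 6.31 in replicate 2. Without chromosome 18, 12.3% of close pairs held a region. With peaks of 1 library alone, members numbered 610 to 932 (14.6 to 15.5% of peaks), close pairs with a region 13.1 to 19.7%, head-to-head pairs 35.9 to 54.3%, midpoints in the gap 18.7 to 25% and median widths 433.5 to 580.5 bp. The higher counts and pair shares come from replicate 2, which has more peaks, while head-to-head pairs stayed above tail-to-tail pairs in each of these settings. For the ETS core, members exceeded all windows by 30.3 percentage points, by 18.1 on the given strand only and by 15.1 set against regions near 1 end; head-to-head windows with a region exceeded those without by 17.7, and by 9.89 on the given strand. For the CCAAT box the corresponding differences were -8.76, -4.88 and -3.66, and -15.7 and -8.82. The cause of these shifts was not tested beyond what each setting itself removes. With a median pileup of 16 or 22 fragments, weaker regions can be missed in either library, so a pair without a shared region was not shown to be unbound.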

Other observations

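An end of a long non-coding RNA gene lay within 1 kb of 15 of the 514 member regions (2.92%, 95% interval 1.64 to 4.77), against 305 of 2029 regions near 1 protein-coding end (15.0%, 13.5 to 16.7). By rule these groups differ in how many protein-coding ends lie within 1 kb. Whether that choice sets the difference was not tested. Small RNA genes were scarce at both, with miRNA genes at 3 member regions and at 18 regions near 1 end.

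Separate regions in 1 pair were found in 4 cases, all head-to-head: Nfya/Oard1, Ggps1/Arid4b, Pcid2/Cul4a and Setd3/Ccnk. Nfya encodes a subunit of the factor NF-Y, and its best-ranked region had 5.09-fold enrichment in replicate 1 and 8.73-fold in replicate 2.

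Chromosomes differed in the share of pairs with a region. On chromosome X, 2 of 106 close pairs (1.89%) held one, and 0 of 29 head-to-head pairs, which allows a share of up to 10.3% by 3 counts of the total and up to 11.9% by the exact interval. On chromosome 18, where strands were not known, it was 8 of 457 close pairs (1.75%). Those 457 pairs were the most of any chromosome listed, ahead of 442 on chromosome 7, so a large number of pairs enters this low share. On chromosome 19, 16 of 32 head-to-head pairs did (95% interval 31.9 to 68.1%). No test of the difference was made.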
